A study of Rattus norvegicus with 939 samples.

Results

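Fenofibrate is a lipid-lowering drug of the fibrate class. The 6 arrays of primary rat hepatocytes labelled with it, 0.639% of all arrays in the series, were compared with the vehicle arrays whose descriptions name it. Hepatocytes in culture received fenofibrate at 250 uM in DMSO for 0.67 d (3 arrays) or 1 d (3 arrays). The 22 control arrays received DMSO alone for the same times. They form DMSO set 1 (6 arrays from 3 cultures) and DMSO set 2 (16 arrays from 8 cultures), in which each culture gave an array at each time. The culture of a treated array, and the age, sex and strain of the rats, are not given in the labels used here, so p-values measure the spread between these arrays. Arrays of the same control culture were counted as separate in the fit, and treated arrays may share cultures too. The p-values therefore do not measure the spread between cultures and may be too small. Treated arrays are named below by exposure time and by hybridization day, counted in order over the series. Within a time their values are given in that order, days 2, 4 and 5 at 0.67 d and days 3, 4 and 6 at 1 d. Part of DMSO set 2 was hybridized on days 12, 14, 15 and 16, when no fenofibrate array was, so treatment and hybridization day are partly confounded. Values are the deposited log2 intensities of poly(A) RNA on Affymetrix arrays. A gene was called when limma gave an adjusted p of 0.01 or less and a change of 1.5-fold or more.

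The active acid of fenofibrate is a ligand of the nuclear receptor PPARa, which with its partner RXR binds a direct repeat of AGGTCA-like half-sites spaced by a base. In rodent liver this receptor is known for raising the genes of fatty acid uptake, of peroxisomal and mitochondrial beta-oxidation and of omega-hydroxylation, and for multiplying peroxisomes. Fasting activates the same receptor when fatty acids reach the liver from adipose tissue.

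The labelled cell type was borne out by its markers. Over 14 hepatocyte markers the mean log2 value was 12.21 to 12.38 on the fenofibrate arrays and 11.92 to 12.58 on the controls, and the markers lay at a median percentile of 99.46 among all genes. Markers of another liver cell varied between cultures. The mean of 11 Kupffer cell (liver macrophage) markers was 5.04 to 8.61 in the controls, with 7.22 to 8.61 in DMSO set 1 and 5.04 to 7.77 in DMSO set 2, and 6.24 to 7.93 on the fenofibrate arrays. Of these 11 markers 9 had a log2 change above 0 (median 1.13), 6 had an unadjusted p under 0.05, all higher, and limma called 0. By array the fenofibrate values were 6.50, 7.93 and 7.49 at 0.67 d and 6.24, 7.91 and 7.75 at 1 d. Arrays at the same position in this order lay close together, and whether they share a culture was not tested. Most arrays of DMSO set 2 lay below every fenofibrate array, among them all those of hybridization days 12 to 16 (5.04 to 5.40). Results on the leukocyte genes Ltb, Cd300a and Fgr are therefore given below with the marker values beside them. The fenofibrate arrays correlated with each other at 0.987 to 0.997 across genes, which are not independent replicates.

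Fenofibrate changed 271 of 14214 genes (1.91%). Of these, 232 rose (1.63%) and 39 fell (0.274%), so that 85.6% of the calls were in the direction of higher expression. At limma's unadjusted p under 0.05, 1096 genes were higher (7.71%) and 1779 lower (12.5%). Counts at that bound in the lists below are to be read against these shares. The changes upward were also the larger: 126 of the genes that rose changed by 2-fold or more, 34 by 4-fold or more and 10 by 10-fold or more, while 5 of the genes that fell reached 2-fold and 0 reached 4-fold. On all 6 treated arrays, 157 of the 232 lay above every control array and 7 of the 39 lay below every control array, against 1.33% and 0.19% of all genes. The genes with the largest separated changes were Acot1, Ehhadh, Pdk4, Cyp4a3, Cpt1b, Cyp4a1, Cd36, Pex11a and Fabp1, which are described below by their roles. Among the largest were also Vnn1, a pantetheinase (log2 2.83, SE 0.15), Slc34a2, a sodium-phosphate cotransporter (log2 2.77, SE 0.24), and Aig1 (log2 2.84, SE 0.07), whose second probe set gave 0.06. Of the 232 genes, 7 are those shared by the fibrates of the series, chosen on these arrays. With these 7 counted in, 112 belong to a list used here other than the marker lists.

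A promoter sequence of RefSeq (rat build GRCr8, 250 bases before to 50 after the start) was found by symbol for 11736 of the 14214 genes, among them 195 of those that rose and 29 of those that fell. A pair of AGGNCA half-sites 1 base apart in the same orientation, on either strand, occurred in 2 of the 195 (1.03%), in 0 of the 29 and in 41 of all promoters (0.349%). Its stricter form with AGGTCA in both half-sites, every match of which also matches the looser form, occurred in 0, 0 and 4 promoters (0.0341% of all). The called genes with the repeat were Fabp1 and Gys2, and the 250 bases before their start are shown because these letters follow the pattern that the receptor is known to bind. Capitals mark the match, 77 to 65 bases before the start in Fabp1, where it reads on the opposite strand, and 80 to 68 bases before it in Gys2. A match is a description of letters and not a measured binding site.
Fabp1, chr4:104749090-104749339, plus strand: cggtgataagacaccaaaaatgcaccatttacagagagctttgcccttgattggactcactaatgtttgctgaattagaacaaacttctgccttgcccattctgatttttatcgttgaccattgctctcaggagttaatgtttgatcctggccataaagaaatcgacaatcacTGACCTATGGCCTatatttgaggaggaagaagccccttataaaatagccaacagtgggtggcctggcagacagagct
Gys2, chr4:177137237-177137486, minus strand: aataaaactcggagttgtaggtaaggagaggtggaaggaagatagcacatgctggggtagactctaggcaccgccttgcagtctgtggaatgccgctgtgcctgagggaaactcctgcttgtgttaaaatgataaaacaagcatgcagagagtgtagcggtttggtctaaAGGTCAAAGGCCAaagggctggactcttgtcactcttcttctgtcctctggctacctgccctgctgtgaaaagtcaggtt

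Fabp1 encodes the fatty acid binding protein of the hepatocyte cytosol. Its log2 value was 12.33, 12.67 and 12.43 at 0.67 d and 12.81, 12.83 and 12.62 at 1 d, against 6.67 to 11.36 (median 9.11) in the controls. The treated arrays lay close together and above every control, whose own values spread widely. The change was 10.6-fold (log2 3.41, SE 0.41, adjusted p = 4e-07), and it was not called with the 0.67 d arrays alone. Gys2, named for its promoter after its values were seen, encodes the liver glycogen synthase. It lay at 9.23, 8.26 and 8.29 at 0.67 d and 8.71, 8.08 and 8.27 at 1 d, against 6.33 to 7.77 (median 7.24) in the controls, again without overlap. It rose 2.36-fold (log2 1.24, SE 0.16, adjusted p = 7.9e-07).

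The first step toward oxidation is the entry, binding and activation of fatty acids. In that list 8 of 28 measured genes rose and 0 fell (12 and 0 at an unadjusted p under 0.05), with a median log2 change of 0.19 against −0.02 over all genes. Acot1, a cytosolic thioesterase that cleaves acyl-CoA, had the largest change of all genes tested. Its values were 10.55, 10.59 and 10.86 at 0.67 d and 10.87, 10.47 and 10.52 at 1 d. The controls stood at 2.94 to 3.29 (median 3.09), near the floor of the array, so the fold of 187 (log2 7.54, SE 0.06, adjusted p = 1.82e-37) depends on how the lowest signals were treated. Cd36, a membrane carrier of fatty acids, lay at 10.18, 9.88 and 10.53 at 0.67 d and 11.05, 10.12 and 10.85 at 1 d, against 4.17 to 8.52 (median 6.30). It rose 16.3-fold (log2 4.03, SE 0.39, adjusted p = 5.33e-09). The acyl-CoA synthetase Acsl1, counted with the mitochondrial genes, rose 4.76-fold (log2 2.25, SE 0.09, adjusted p = 1.78e-18), and Acsl3 and Acot7 rose with log2 changes of 1.79 and 1.90. The second probe set of Acot7 gave 0.08. Slc27a5 and Fabp2 of the same list had log2 values of −0.51 and −0.24 and were not called. Acot1 belongs to a family of near-identical thioesterases (Acot1 to Acot4 are all called here), and probe sets of such families may share signal.

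Peroxisomal beta-oxidation was the list with the highest share of called genes, 18 of 25 higher and 0 lower, with a median log2 change of 1.50. Ehhadh, the bifunctional hydratase and dehydrogenase of the peroxisome, lay at 12.64, 12.71 and 12.64 at 0.67 d and 12.57, 12.57 and 12.32 at 1 d. Control values ran from 5.25 to 7.17 (median 6.00), far below the treated arrays, and the change was 91.7-fold (log2 6.52, SE 0.23, adjusted p = 3.69e-19). Acot4, a peroxisomal thioesterase, rose 8.41-fold (log2 3.07, SE 0.14), and Ech1, a dienoyl-CoA isomerase, rose 7.29-fold (log2 2.87, SE 0.08). Hsdl2, Hacl1, Acot3, Decr2, Slc27a2 and Nudt7 rose with log2 changes between 1.69 and 2.54. The 7 members without a call included the branched-chain enzymes Acox2 (log2 0.17), Acox3 (0.41), Scp2 (0.42) and Amacr (−0.25). On all 6 arrays, 18 of the 25 stood above every control.

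Peroxisome formation and the other matrix enzymes moved less as a group, with 8 of 28 higher, 0 lower and a median of 0.14. Pex11a, which acts in the division of peroxisomes, lay at 11.03, 10.69 and 10.88 at 0.67 d and 10.51, 10.39 and 10.48 at 1 d, against 6.76 to 7.50 (median 7.17). It rose 11.5-fold (log2 3.52, SE 0.11, adjusted p = 5.39e-21). Ephx2, the soluble epoxide hydrolase, rose 3.88-fold (log2 1.95, SE 0.24), and the membrane protein Pxmp4 rose 2.29-fold (log2 1.19, SE 0.20). Among the import and assembly factors, Pex19 and Pex16 rose (log2 0.91 and 0.60), while Pex5, Pex13, Pex10, Pex3, Pex7 and Pex2 had log2 changes between 0.02 and 0.13 and were not called. The second probe set of Pex16 gave 0.11. Catalase (Cat), a matrix enzyme that breaks down hydrogen peroxide, had a log2 change of 0.38 and was not called.

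The omega-hydroxylation list was carried by the Cyp4a enzymes, with 3 of 13 members higher and 0 lower (median 0.20). Cyp4a3 lay at 12.94, 12.95 and 12.31 at 0.67 d and 12.91, 12.80 and 12.25 at 1 d, against 6.93 to 9.44 (median 7.86), and rose 27.2-fold (log2 4.77, SE 0.23, adjusted p = 6.74e-16). Cyp4a1 lay at 12.13, 11.79 and 11.63 at 0.67 d and 12.34, 12.11 and 11.88 at 1 d, against 6.18 to 9.39 (median 7.25), and rose 22.5-fold (log2 4.49, SE 0.37, adjusted p = 1.95e-10). In both genes the controls spread over more than 2 log2 units and no treated array reached that range. Aldh3a2, which oxidizes fatty aldehydes, rose 1.62-fold (log2 0.70, SE 0.07). Cyp4a8 (−0.11) and the Cyp4f and Cyp4v members measured (−0.31 to 0.32) were not called.

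In mitochondrial beta-oxidation 21 of 31 genes rose and 0 fell, with a median of 1.30. Cpt1b, the muscle form of carnitine palmitoyltransferase, lay at 10.76, 10.50 and 10.36 at 0.67 d and 11.06, 10.54 and 10.46 at 1 d, against 5.47 to 6.43 (median 5.78), and rose 26.2-fold (log2 4.71, SE 0.13, adjusted p = 2.98e-22). The liver form Cpt1a rose 5.50-fold (log2 2.46, SE 0.10). Ucp2, a mitochondrial carrier of the uncoupling protein family, rose 5.61-fold (log2 2.49, SE 0.14, adjusted p = 4.04e-14). The enzymes of the spiral itself and its auxiliary enzymes rose as well, Acaa2 by log2 2.41, Eci1 2.12, Decr1 1.91, Hadh 1.62, Acadvl 1.48, Acadm 1.32, Hadha 1.30, Hadhb 0.94 and Acadl 0.79. Cpt2 and the carnitine carriers Slc25a20 and Slc22a5 rose with log2 1.83, 1.65 and 1.86. Echs1 (log2 0.18), Etfa (0.25) and Acadsb (−0.41), the last an enzyme of branched amino acid breakdown, were not called. None of the 38 nuclear genes of oxidative phosphorylation was called, with log2 changes between −0.14 and 0.15; 7 had an unadjusted p under 0.05 in the higher direction and 2 in the lower, against 7.71% and 12.5% of all genes.

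In the list of ketone bodies and the pyruvate switch 3 of 17 rose and 0 fell (5 higher and 2 lower at an unadjusted p under 0.05). Pdk4, which inhibits the pyruvate dehydrogenase complex, lay at 11.78, 12.09 and 12.03 at 0.67 d and 11.43, 11.99 and 11.80 at 1 d. Its controls ran from 5.64 to 7.62 (median 6.64), and it rose 38.8-fold (log2 5.28, SE 0.23, adjusted p = 2.76e-17). The related kinases Pdk1, Pdk2 and Pdk3 had log2 changes of 0.24, −0.13 and −0.16 and were not called. Acat1, the mitochondrial acetoacetyl-CoA thiolase, rose 3.85-fold (log2 1.94, SE 0.11). Fgf21, a hormone that the fasted liver secretes, lay at 7.92, 7.44 and 7.42 at 0.67 d and 7.33, 7.35 and 7.49 at 1 d, against 5.39 to 7.48 (median 5.94). Its highest control lay within the treated range, and the change was 2.57-fold (log2 1.36, SE 0.21, adjusted p = 2.38e-05).

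**Figure D1:**
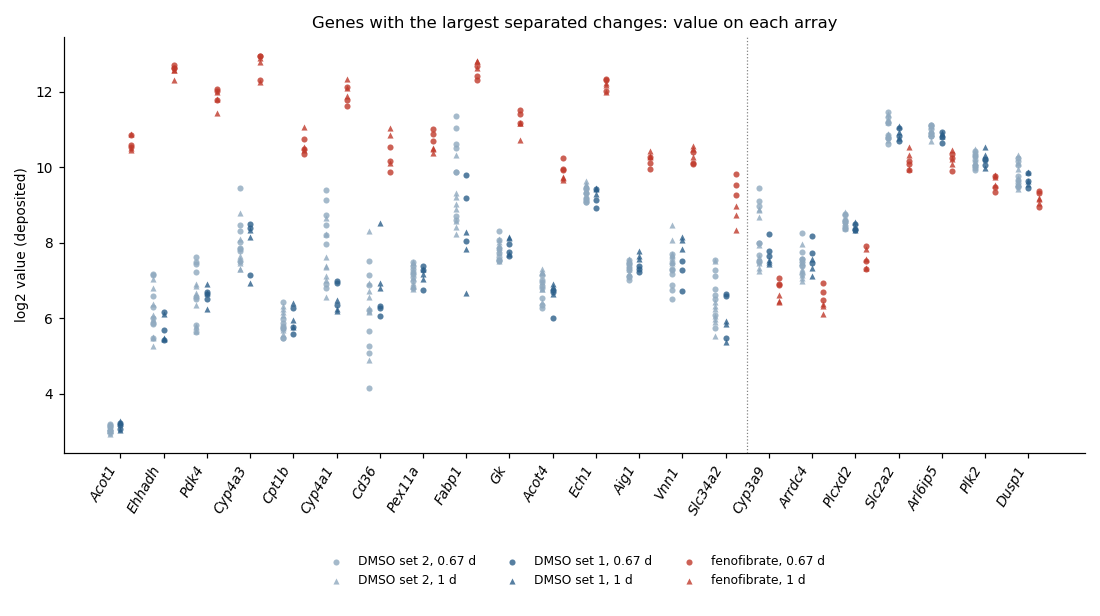
Deposited log2 value (vertical axis) of the 15 genes with the largest increases (left of the dotted line) and the 7 genes that fell (right of it) whose 6 fenofibrate arrays all lie outside the range of the 22 controls. Each point is an array, coloured by group and shaped by exposure time; the red fenofibrate points clear the blue control points in every gene, by over 7 log2 units for Acot1.

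**Figure D2:**
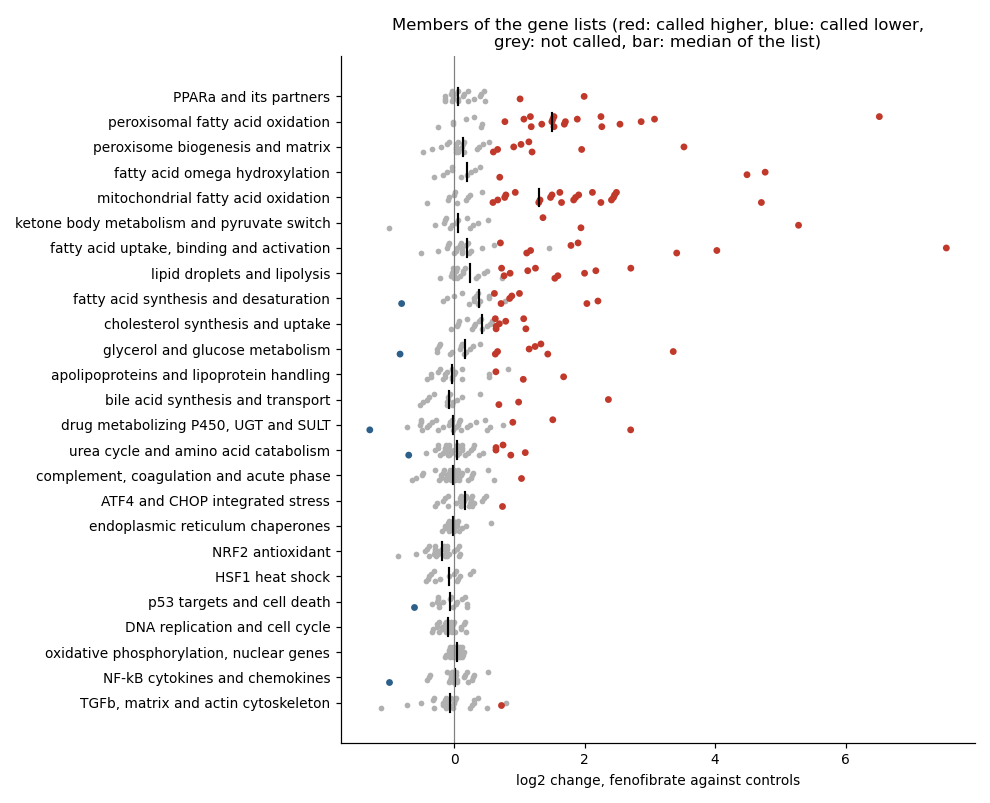
Log2 change with fenofibrate (horizontal axis) of every measured member of the 25 pathway lists (vertical axis); red points are genes called higher, blue points genes called lower, grey points genes not called, and the black bar is the median of the list. Peroxisomal and mitochondrial fatty acid oxidation have their medians at 1.50 and 1.30, while those of the other lists lie between −0.19 and 0.42.

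Lipid storage and release was the next list by number, with 10 of 30 higher, 0 lower and a median of 0.25. It held both lipases and their inhibitors. Angptl4, a secreted inhibitor of lipoprotein lipase, rose 6.53-fold (log2 2.71, SE 0.18), and Hilpda and G0s2, which inhibit the triglyceride lipase Pnpla2, rose 4.51-fold and 2.91-fold (log2 2.17 and 1.54). Pnpla2 itself rose 2.37-fold (log2 1.25, SE 0.06), and Mgll, which cleaves monoacylglycerol, rose 4.00-fold (log2 2.00, SE 0.15), with 3 of its 4 probe sets between 1.73 and 2.08 and the fourth at 0.06. The droplet coat protein Plin5 lay at 6.49, 6.16 and 5.83 at 0.67 d and 5.88, 5.68 and 5.76 at 1 d, against 4.11 to 4.63 (median 4.37), and rose 3.01-fold (log2 1.59, SE 0.08, adjusted p = 2.47e-15). Plin2 rose 2.19-fold (log2 1.13, SE 0.06), while Plin1, Plin3 and Plin4 had log2 changes between −0.05 and 0.09. Cidea, which promotes droplet fusion and stands also in the adipocyte marker list, rose 1.81-fold (log2 0.86, SE 0.07); the other 8 adipocyte markers measured were not called.

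Glycerol and glucose genes split, with 7 of 22 higher and 1 lower. Gk, glycerol kinase, lay at 11.18, 11.42 and 11.52 at 0.67 d and 10.73, 11.18 and 11.18 at 1 d, against 7.51 to 8.32 (median 7.85), and rose 10.3-fold (log2 3.36, SE 0.11, adjusted p = 2.81e-20); its second probe set gave 1.27. The glycerol channel Aqp7, glycerol phosphate dehydrogenase Gpd1 and the gluconeogenic enzyme Fbp1 rose with log2 1.15, 1.33 and 1.44. Slc2a2, the main glucose carrier of the hepatocyte membrane, lay at 10.18, 9.92 and 10.10 at 0.67 d and 10.55, 9.95 and 10.34 at 1 d, against 10.61 to 11.46 (median 10.91). It lay below every control and fell by 0.83 on the log2 scale (SE 0.11, adjusted p = 2.34e-06). Pck1, the key enzyme of gluconeogenesis, had a log2 change of 0.10 and was not called. With DMSO set 1 as the only controls, 4 genes of this list were called higher.

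In fatty acid synthesis and desaturation 7 of 22 rose and 1 fell, with a median of 0.38. The elongase Elovl6 rose 4.10-fold (log2 2.03, SE 0.16), and the desaturases Fads1 and Fads2 rose 1.85-fold and 1.80-fold. Scd, a stearoyl-CoA desaturase, lay at 13.10, 12.80 and 12.30 at 0.67 d and 13.09, 12.72 and 12.33 at 1 d, overlapping the controls at 10.70 to 12.73 (median 11.66), and rose 2.00-fold (log2 1.00, SE 0.18, adjusted p = 0.000234). Scd2 was called at 4.61-fold (log2 2.20, SE 0.51, adjusted p = 0.00414), but its other 3 probe sets gave 0.05 to 0.46, and on a hybridization day that held both groups the difference was −0.46. Srebf1, a transcription factor of lipid synthesis, rose 1.65-fold (log2 0.72, SE 0.12), while Fasn, Acaca and Acly had log2 changes of 0.53, 0.39 and 0.23 and were not called. Pklr, liver pyruvate kinase, fell by 0.80 (SE 0.19, adjusted p = 0.00578), with 6.22, 6.30 and 7.20 at 0.67 d and 6.55, 5.87 and 6.49 at 1 d against 6.37 to 8.16. The calls of Pklr and Scd2 were lost in 21 and 14 of 54 alternative settings. Without the fenofibrate arrays of hybridization days 2 and 3, 3 genes of this list were called higher, and with the replicate block 4.

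In cholesterol synthesis and uptake 7 of 21 genes rose and 0 fell (17 and 0 at an unadjusted p under 0.05), with a median of 0.42 and a highest change of 1.10 on the log2 scale. Acat2, the cytosolic thiolase, rose 2.14-fold (log2 1.10, SE 0.13), Lss, lanosterol synthase, 2.09-fold (log2 1.07, SE 0.17) and Hsd17b7 1.73-fold (log2 0.79, SE 0.13). Idi1, Fdps, Dhcr7 and Sqle were the others called, at log2 0.63 to 0.69. Srebf2, the transcription factor of this pathway, had a log2 change of 0.27 and was not called. With DMSO set 1 as the only controls 11 genes of this list were called.

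In apolipoproteins and lipoprotein handling 3 of 22 rose and 0 fell (5 and 1 at an unadjusted p under 0.05). Mttp, the transfer protein that loads lipid on apolipoprotein B, lay at 10.57, 10.59 and 10.46 at 0.67 d and 10.59, 10.52 and 10.43 at 1 d, against 8.00 to 9.27 (median 8.87), and rose 3.20-fold (log2 1.68, SE 0.11, adjusted p = 1.56e-12). Apob rose 1.56-fold (log2 0.64, SE 0.07) and the receptor Lrp1 2.08-fold (log2 1.06, SE 0.13). The second probe set of Lrp1 gave 0.09. Within hybridization days Lrp1 differed by 0.09 on day 2 and by 0.64 to 1.27 on days 3 to 6. The apolipoproteins Apoa1, Apoa2, Apoa5 and Apoc3, of which Apoc3 inhibits and Apoa5 aids the clearing of triglyceride, had log2 changes of −0.04, −0.35, −0.42 and −0.04 and were not called.

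Of 18 bile acid genes 3 rose and 0 fell (4 and 2 at an unadjusted p under 0.05). Cyp8b1, the 12-hydroxylase that sets the proportion of cholic acid, lay at 8.90, 8.19 and 8.02 at 0.67 d and 8.15, 8.39 and 8.17 at 1 d, against 4.91 to 7.23 (median 5.83), and rose 5.15-fold (log2 2.36, SE 0.24, adjusted p = 1.01e-08). Akr1d1 and Baat rose 1.98-fold and 1.61-fold. Cyp7a1, which starts bile acid synthesis, had a log2 change of −0.04.

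Among drug-metabolizing genes 3 of 31 rose and 1 fell. Cyp1a1, an aryl hydrocarbon receptor target, lay at 11.33, 11.39 and 11.27 at 0.67 d and 9.21, 10.31 and 9.86 at 1 d, against 5.37 to 9.29 (median 7.85), and rose 6.52-fold (log2 2.71, SE 0.31, adjusted p = 2.18e-07). The array of day 3 at 1 d lay within the control range, and with the 1 d arrays alone Cyp1a1 was not called. Cyp1a2 and Cyp1b1 had log2 changes of 0.51 and −0.07. The nuclear receptor Nr1i3 (CAR) rose 2.85-fold (log2 1.51, SE 0.19) and Por, which feeds electrons to the P450 enzymes, 1.87-fold (log2 0.90, SE 0.09). Cyp3a9 lay at 7.07, 6.90 and 6.89 at 0.67 d and 6.45, 6.44 and 6.62 at 1 d, below the controls at 7.25 to 9.45 (median 7.74), and fell by 1.29 (SE 0.26, adjusted p = 0.000908). It was not called at either time alone.

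The receptor gene itself was not called. Ppara lay at 5.85, 6.08 and 5.79 at 0.67 d and 5.57, 6.04 and 5.61 at 1 d, against 5.13 to 5.74 (median 5.45), and its change of log2 0.39 (SE 0.09, adjusted p = 0.00553) was under the bound of 1.5-fold. Of 23 genes in this list 2 rose and 0 fell (9 and 1 at an unadjusted p under 0.05). Creb3l3, a hepatic transcription factor of the fasting response, lay at 12.49, 12.62 and 12.56 at 0.67 d and 12.27, 12.44 and 12.39 at 1 d, against 9.58 to 10.95 (median 10.51), and rose 3.98-fold (log2 1.99, SE 0.12, adjusted p = 7.59e-14). Rxrg, a form of the partner receptor, rose 2.01-fold (log2 1.01, SE 0.12), though its second probe set gave −0.05. Rxra and Rxrb had log2 changes of 0.21 and 0.06, Ppard and Pparg 0.06 and −0.14, and the coactivators Ppargc1a and Ppargc1b −0.03 and 0.13. Lpin1, Hnf4a, Nr1h3 and Nr1h4 lay between 0.30 and 0.47, and Ncoa1, Ncoa2, Ncoa3, Ncor1, Esrra, Ep300, Crebbp, Nrip1, Nr0b2 and Med1 between −0.13 and 0.21, all without a call.

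Amino acid catabolism had 5 of 37 genes higher and 1 lower, with Tdo2, the tryptophan dioxygenase, 2.13-fold higher (log2 1.09, SE 0.13), Cth and Mat1a of methionine metabolism at log2 0.87 and 0.75, and Acmsd, which takes tryptophan carbon away from NAD synthesis, lower by 0.70 (the change was −0.70, SE 0.12). Without the fenofibrate arrays of hybridization days 2 and 3, 3 genes of this list were called higher. Lists of damage and stress held few calls. Of 26 ATF4 targets Atf5 alone rose (log2 0.74, SE 0.10), with 8 higher and 1 lower at an unadjusted p under 0.05. Limma called 0 of 27 NRF2 genes (0 higher and 10 lower at an unadjusted p under 0.05), 0 of 19 chaperones of the endoplasmic reticulum (1 and 0), 0 of 15 heat shock genes (2 and 6) and 0 of 31 cell cycle genes (1 and 5). At that unadjusted bound 7.71% of all genes were higher and 12.5% lower, so few calls do not mean that these lists were unmoved. In the p53 list of 17 genes Plk2 fell by 0.61 (SE 0.07) and the others, Cdkn1a and Mdm2 among them, were not called. In the list of complement, coagulation and acute phase, C5 rose 2.04-fold (log2 1.03, SE 0.16) and 36 members were not called; with DMSO set 1 alone C5 was not called either. Myl9 was the only call among 28 matrix and cytoskeleton genes (log2 0.72, SE 0.17, adjusted p = 0.00547), and its treated values of 7.61 to 9.14 overlapped the controls at 6.98 to 8.73; the call was lost in 18 of 54 alternative settings.

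The genes that fell were fewer, smaller in change and mostly outside the lists: 6 of the 39 belong to one of them. The lowest log2 change of all genes was that of Fam25a, named after its values were seen, at −1.30 (SE 0.24, adjusted p = 0.000261), with treated values of 7.25 to 9.06 against 8.06 to 11.06. Arrdc4 and Txnip, related alpha-arrestins that restrain glucose uptake, moved in opposite directions. Arrdc4 lay at 6.95, 6.70 and 6.48 at 0.67 d and 6.39, 6.11 and 6.33 at 1 d, below the controls at 7.00 to 8.26 (median 7.48), and fell by 1.00 (SE 0.13, adjusted p = 9.75e-07). Txnip, named after its values were seen, lay at 9.74, 9.22 and 9.26 at 0.67 d and 9.25, 9.0 and 9.16 at 1 d, above the controls at 6.21 to 8.05 (median 7.32), and rose 4.00-fold (log2 2.00, SE 0.24, adjusted p = 2.87e-07). Plcxd2, Arl6ip5, Plk2 and the phosphatase gene Dusp1 were the other genes below every control, with changes of −0.95, −0.72, −0.61 and −0.60, of which that of Dusp1 lost its call in 20 of 54 alternative settings. Abcb1a, the P-glycoprotein drug pump, also named after its values were seen, lay at 8.29, 7.71 and 7.71 at 0.67 d and 7.48, 7.34 and 7.59 at 1 d against 7.59 to 9.15 (median 8.49), and fell by 0.79 (SE 0.10, adjusted p = 7.61e-07). Within hybridization days Abcb1a differed by 0.03 on day 2 and by −1.04 to −0.40 on days 3 to 6. The interferon-induced chemokine Cxcl11 fell by 1.00 (SE 0.18, adjusted p = 0.000328). Its treated range of 8.23 to 8.99 overlapped the controls at 8.62 to 10.13, and with DMSO set 1 alone it was not called. With the Kupffer marker mean of each array as a covariate, the log2 change of Cxcl11 was −0.79 (limma's adjusted p = 0.00114).

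Several called genes are known from leukocytes: Ltb (lymphotoxin beta), Cd300a (an inhibitory receptor of myeloid cells) and Fgr (a kinase of myeloid cells), all named after their values were seen. Ltb lay at 8.46, 10.80 and 9.31 at 0.67 d and 8.41, 11.15 and 9.67 at 1 d, against 6.90 to 10.02 (median 7.50), and was called at log2 1.75 (SE 0.43, adjusted p = 0.00744). Cd300a lay at 5.64, 6.34 and 7.79 at 0.67 d and 5.37, 6.14 and 7.87 at 1 d, against 4.15 to 6.78 (median 4.66), and was called at log2 1.50 (SE 0.36, adjusted p = 0.00624). Fgr lay at 7.77, 7.76 and 7.40 at 0.67 d and 7.25, 7.77 and 7.02 at 1 d, against 6.00 to 7.21 (median 6.63), and was called at log2 0.93 (SE 0.14, adjusted p = 2.93e-05). Arrays of both times lay within the control range for Ltb and Cd300a, and the 1 d array of day 6 did for Fgr. The Kupffer cell markers stood at 6.24 to 7.93 on the same treated arrays and at 5.04 to 8.61 in the controls; in cultures, more cells of a type and more RNA per cell cannot be told apart. With the Kupffer marker mean of each array as a covariate, the log2 changes were 1.69 for Ltb (limma's adjusted p = 0.0164, no longer called), 0.88 for Cd300a (adjusted p = 0.00303) and 0.94 for Fgr (adjusted p = 7.34e-05). On hybridization days 2 and 3 the difference of Cd300a was −1.14 and −0.13, and on days 4 to 6 it was 1.16 to 2.36. The arrays of DMSO set 1, with the higher marker mean, had Ltb at 6.90 to 7.70, Fgr at 6.00 to 6.99 and Cd300a at 5.43 to 6.78, which includes the highest Cd300a value of all controls. The part of Kupffer cells in these results was not tested beyond the covariate. Under the same covariate 295 genes were called, of which 251 were among the 271.

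**Figure D3:**
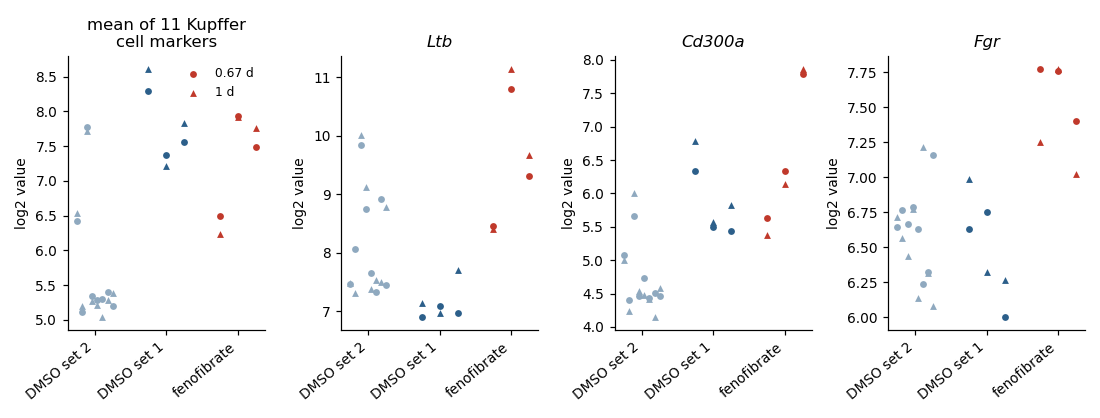
Log2 values (vertical axes) on each array of DMSO set 2, DMSO set 1 and fenofibrate, with circles for 0.67 d and triangles for 1 d. The mean of the 11 Kupffer cell markers runs from 5.04 to 8.61 in the controls; Ltb, Cd300a and Fgr are drawn beside it, and their fenofibrate arrays differ among themselves.

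No gene was called for a difference between the exposure times, a test that rests on 3 treated arrays at each. In limma's test of the interaction of treatment with time, 0 of 14214 genes passed an adjusted p of 0.01 (0%), 224 had an unadjusted p under 0.05 (1.58%), and the ordinary linear model also gave 0. Among the 232 genes that rose, 175 had the larger estimate at 0.67 d, and among the 39 that fell, 11 did. Fabp1 was 2.69 higher at 0.67 d and 4.13 at 1 d on the log2 scale, and Cyp4a1 4.04 and 4.94, whereas Elovl6 was 2.39 and 1.68 higher and the peroxisomal lyase Hacl1 2.64 and 1.88. Cyp1a1 was 2.96 and 2.45 higher (difference −0.51, SE 0.63). None of these differences passed the adjusted test, which does not show that the times act alike. No term for culture entered this test, although each control culture gave an array at each time. Differences between cultures then stay in the residual spread, and the test may miss differences between the times.

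**Figure D4:**
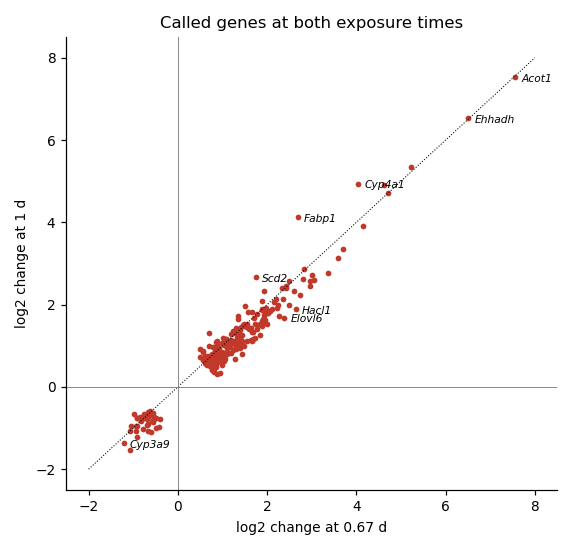
Log2 change at 0.67 d (horizontal axis) and at 1 d (vertical axis) of the 271 called genes, each point a gene, with the dotted line of equal change. Points follow the line, from Acot1 at the top (7.57 and 7.52) to the genes that fell; Fabp1 and Scd2 lie above the line and Hacl1 and Elovl6 below it.

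Clofibrate (500 uM, 6 arrays) was compared with the same 22 controls, so its values are set beside those of fenofibrate with no test; the doses also differ. It called 15 genes higher (0.106%) and, by limma, 0 lower. For Acot1 the log2 changes were 7.54 with fenofibrate and 2.57 with clofibrate, for Ehhadh 6.52 and 2.19, for Pdk4 5.28 and 2.86, for Cyp4a3 4.77 and 2.39, and for Cpt1b 4.71 and 2.20. For Gk they were 3.36 and 1.30, for Fabp1 3.41 and 0.34, and for Mttp 1.68 and 0.37. The medians over the peroxisomal and mitochondrial oxidation lists were 1.50 and 1.30 with fenofibrate and 0.35 and 0.32 with clofibrate, and over cholesterol synthesis 0.42 and −0.13.

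Gemfibrozil (2000 uM, 6 arrays, 8 controls of its own) allowed a test of the difference, although its dose was higher. Other cell types moved in this comparison as well: the Kupffer cell marker mean was 6.11 to 7.54 (median 6.65) on the gemfibrozil arrays and 6.08 to 8.56 (median 7.81) in its controls, with a median log2 change of −1.10 over the 11 markers and 2 called lower, against 1.13 and 0 called with fenofibrate. Of 10 stellate cell markers 4 were called lower with gemfibrozil and 0 were called with fenofibrate, and the part of these cells in the differences was not tested. Gemfibrozil also lowered 4 and raised 0 of 14 hepatocyte markers (median log2 change −0.26), of which 0 were called with fenofibrate. It lowered 20 and raised 1 of 37 amino acid genes, and lowered 19 and raised 0 of 37 genes of complement, coagulation and acute phase. The part of such a fall of hepatocyte genes in the differences was not tested. The change differed in 3606 genes (25.4%), with 1879 higher with fenofibrate (13.2%) and 1727 lower (12.1%); after subtraction of each array's median the split was 1499 and 2351. Of the 232 genes that rose with fenofibrate, 189 were called higher than with gemfibrozil and 5 lower. The 232 were called on the same fenofibrate arrays that enter this difference, so an excess in the higher direction is partly built in. Gemfibrozil raised 33 of them (14.2% of the 232 and 2.16% of the 1525 genes it raised, which are 10.7% of all genes) and lowered 47 (20.3%, and 2.69% of the 1746 it lowered, which are 12.3%). Ehhadh changed by log2 6.52 with fenofibrate and −0.46 with gemfibrozil, a difference of 6.97 (SE 0.72, adjusted p = 1.77e-09). Vnn1, a pantetheinase of the coenzyme A pathway, changed by 2.83 and −2.61, a difference of 5.45 (SE 0.55, adjusted p = 1.28e-09). The differences of Acot1, Cyp1a1 and Aldh1a1 were 5.46, 4.48 and 4.42.

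In the other direction gemfibrozil raised Shc4, Tmem117, Tmco4 and Klf4 by log2 3.87, 3.47, 3.49 and 2.71, where fenofibrate had changes between −0.48 and 0.18. Fgf21 changed by 1.36 with fenofibrate and 4.49 with gemfibrozil, a difference of −3.13 (SE 0.54, adjusted p = 7.08e-06). For Pdk4 and Hilpda no difference was called: −0.14 (SE 0.46, adjusted p = 0.847) and −0.48 (SE 0.33, adjusted p = 0.258), so a difference of 1.5-fold in Pdk4 lies within 2 standard errors. Gemfibrozil raised 19 of 26 ATF4 targets and fenofibrate 1, with the change called lower with fenofibrate in 18. Without the gemfibrozil array of 1 d and hybridization day 2, 4378 genes differed.

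Simvastatin (160 uM, 6 arrays, 12 controls of its own), a statin that inhibits cholesterol synthesis, shared most of the increase. Its dose also differed. The Kupffer cell marker mean was 5.17 to 5.41 on the simvastatin arrays and 5.10 to 5.42 in its controls, lower than on any fenofibrate array. Of 10 stellate cell markers 2 were called lower with simvastatin. The part of these cells in the differences was not tested. Of the 232 genes that rose with fenofibrate, simvastatin raised 166 (71.6% of the 232 and 42.2% of the 393 it raised, which are 2.76% of all genes) and lowered 0 of them by limma's call; of the 39 that fell it lowered 24 (61.5%, and 6.19% of its 388, which are 2.73% of all genes). The difference was called in 305 genes (2.15%), 185 higher with fenofibrate (1.3%) and 120 lower (0.844%). Of the 232 genes, 18 were among those higher and 6 among those lower with fenofibrate, a split that is partly built in for the reason given for gemfibrozil. Pdk4 changed by 5.28 with fenofibrate and 5.73 with simvastatin, a difference of −0.45 (SE 0.33, adjusted p = 0.477), Cyp4a3 by 4.77 and 4.62 (difference 0.14, SE 0.33), and Ehhadh by 6.52 and 5.45 (difference 1.07, SE 0.33, adjusted p = 0.0324).

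Fenofibrate exceeded simvastatin in Acot1 by 1.66 (SE 0.20, adjusted p = 2.49e-07), in Cpt1b by 1.12 (SE 0.25) and in Ucp2 by 1.44 (SE 0.25, adjusted p = 0.000112). Qpct, a glutaminyl cyclase named after its values were seen, lay at 5.33, 5.37 and 5.50 at 0.67 d and 4.85, 6.18 and 6.79 at 1 d against 3.31 to 3.97 in the fenofibrate controls. It changed by 2.13 with fenofibrate and 0.33 with simvastatin, a difference of 1.80 (SE 0.18, adjusted p = 1.6e-09). Its controls lay near the floor of the array, so the size of its change depends on how the lowest signals were treated. The largest differences in this direction came from genes that simvastatin lowered and fenofibrate did not change past the bounds: Tagln, an actin-binding protein of contractile cells (0.24 and −3.05), Prnd (−0.55 and −2.93), Bhlhe41 (0.35 and −1.96), Noct (−0.02 and −2.26) and Popdc2 (0.00 and −1.90). In the actin and matrix list 6 of 28 genes were called higher with fenofibrate than with simvastatin and 0 lower.

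In the opposite direction stood genes of drug metabolism and of sterol synthesis. Ugt2b1 changed by −0.51 with fenofibrate and 2.86 with simvastatin, and Cyp3a23-3a1 by −0.17 and 2.25. Hsd17b7 of the sterol pathway changed by 0.79 and 2.74, a difference of −1.94 (SE 0.21, adjusted p = 1.52e-08). Of the 21 cholesterol synthesis genes 12 were called lower with fenofibrate than with simvastatin and 0 higher, while peroxisomal oxidation had 1 of 25 higher and 0 lower. Shc4 and Hao2 completed the largest differences, at −1.63 and −1.53.

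**Figure D5:**
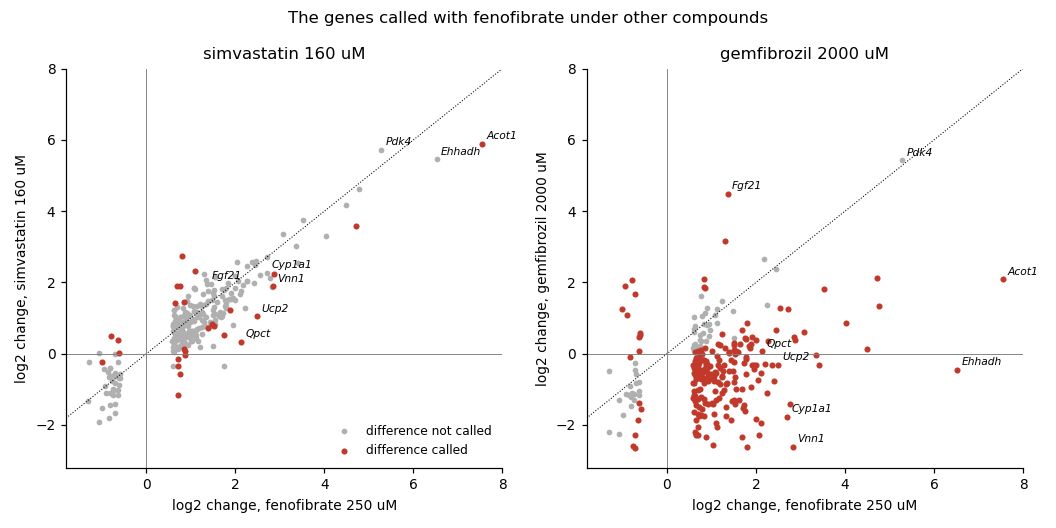
Log2 change of the 271 genes called with fenofibrate (horizontal axes) against their change with simvastatin (left) and gemfibrozil (right), each compound measured against its own controls; red points are genes whose difference was called, and the dotted line marks equal change. Most points lie near the line for simvastatin, with Acot1, Ucp2 and Qpct to its right, whereas for gemfibrozil most genes that rose with fenofibrate lie near or below 0 and Fgf21 lies above the line.

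Among the 120 compounds of the same campaign fenofibrate ranked 86 by its number of called genes. For 91 of the 232 genes that rose its change was the highest of the 120, a description with no test since many compounds share controls. The genes were called for their change with fenofibrate, so an extreme rank is partly built in. The share of all genes with such a rank was not counted. The 91 include Acot1, Ehhadh, Cyp4a1, Cyp4a3, Cpt1b, Fabp1, Gk, Ech1, Ucp2, Creb3l3 and Mttp. In the mitochondrial list, with genes not called counted as well, its change was the highest for 16 of the 31. For 4 of the 39 genes that fell its change was the lowest, namely Cyp3a9, Abcb1a, Tmbim1 and Zfp367, of which Abcb1a was called higher in 61 of the other compounds; all but Cyp3a9 are named after their values were seen. Pdk4, by contrast, was called higher in 70 of the other compounds and ranked 5, and the sterol genes Acat2, Lss and Hsd17b7 ranked 36, 28 and 56.

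Within hybridization days, a batch that treated arrays share with part of the controls, the direction could be read on 5 days. They held 1 to 5 control arrays each, of either time, with 1 on days 2, 5 and 6. On every one of the 5 days 225 of the 232 genes that rose and 36 of the 39 that fell kept their direction. These genes were called on the same arrays, so the agreement is largely built in and is no separate support. The share over all genes was not counted.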

How the data were processed

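The authors deposited log2 intensities of 31099 probe sets on all Affymetrix arrays of the series; the submitters' notes name RMA, with no version, and the paper's methods name its frozen form. RMA subtracts background and aligns array distributions, so low signals are compressed and a shift common to all genes would be removed. The number of arrays limits the precision. Probe sets with 1 gene symbol in the platform annotation (20832) were kept, with symbols updated through the RefSeq table of GRCr8 for 20827; 9831 had none and 436 several. The probe set with the highest mean over all arrays stood for each of 14214 genes (4527 had more than 1). Values of other probe sets are given above for some genes and not for all.

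Treatment and time were factors in limma 3.58.1 (R 4.3.3), with p-values adjusted by Benjamini-Hochberg over all genes. Differences between compounds were contrasts of treated minus own controls, and interactions used the same arrays. The fits were tested on simulated data. The alternatives are given in the closing section; the Kupffer covariate and the fits without the arrays of days 2 and 3 were chosen after seeing these data. The members, the 25 pathway and 6 marker lists and the tests were chosen with earlier results of these data known. The rule for named genes took the 15 largest calls in each direction among genes whose 6 treated arrays lay outside the control range, of which 7 were lower, the 3 largest calls per list and direction, all members of the receptor list, and the 5 largest differences per direction and compound; genes beyond it serve as examples within a list or are said to be chosen after their values were seen. A planned description of protein C termini was not made, since no protein sequences were used here.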

Additional observations from a re-analysis of the deposited data

Results flagged for a closer look

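Among 96 genes looked at, 4 had a fenofibrate array far from the other 5, judged by the gap to the nearest array as a share of the whole range; chance gives about 1 in 20 groups. Rxrg was highest on the array of 0.67 d and hybridization day 2, 1.59 above the control mean of its time on the log2 scale, with the next array at 1.02 (ratio 0.654). Hsdl2 was lowest on the array of 0.67 d and day 5, at 2.34 against 2.55 for the next (ratio 0.771), so all 6 arrays stayed far above the controls. Med1 was lowest on the array of 1 d and day 3, at −0.45 against −0.13 (ratio 0.708), and Ncoa2 on the array of 1 d and day 4, at −0.20 against −0.0026 (ratio 0.723); neither gene was called. The 4 outlying values fell on 4 different arrays.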

How the results depend on the processing

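The number of called genes was 271. It was 131 at a bound of 2-fold and 170 with the 1 d arrays alone, and 191 to 276 when an array or a replicate number was left out; under the other alternatives it lay between 221 and 313. With only DMSO set 1 as controls 274 genes were called, 219 of them among the 271, and with only DMSO set 2 295, with 246 shared. With only the controls of the days that held a fenofibrate array 251 genes were called, 229 of them among the 271. With the control culture as a random block 274 were called, 270 of them among the 271. In that fit each treated array formed its own block, so cultures shared by treated arrays were not modelled. For the 63 called genes named by the rule, the direction was unchanged in the 54 alternatives that keep the bound of 1.5-fold (53 for 3 genes that the filter on low genes left out), and 36 of them passed the bounds in all of these; the cause of the losses was not tested. With the 1 d arrays alone 18 of the 63 were lost and with the 0.67 d arrays alone 15, where fewer arrays entered. Replicate numbers restart among the fenofibrate arrays and do not pair samples: of 24 pairs with the same number 8 had a residual correlation above 0.1 (mean 0.0078). Of 108 pairs with different numbers 37 did (mean −0.0028). The highest correlations were 0.62 and 0.65, so some arrays resembled each other in ways the replicate number does not follow. The replicate block gave 276 genes with fenofibrate, 0 for time, 3540 against gemfibrozil and 398 against simvastatin. The interaction with time stayed at 0 called genes under every alternative run, none of which used the control culture as a block. Leaving out an array gave 3228 to 4378 genes for the difference from gemfibrozil and 234 to 370 for that from simvastatin.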

Other observations

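Several genes of coenzyme A supply, for which no list had been fixed and which were picked after their values were seen, were called higher: Pank1, which starts coenzyme A synthesis (log2 1.45, SE 0.11), Ppcs, which acts at the next step (1.26, SE 0.08), the mitochondrial coenzyme A carrier Slc25a42 (1.74, SE 0.07) and Nudt7, which cleaves it in peroxisomes (1.69, SE 0.13). Cxcl12, a chemokine, rose with log2 2.07 (SE 0.17) and was −2.28 with gemfibrozil, and Lpcat3, which puts polyunsaturated chains into phospholipid, rose with log2 1.78 (SE 0.08). Hjv, which tunes hepatic iron signalling, was at 0.90 (SE 0.20) with fenofibrate and −3.30 with gemfibrozil.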
